A study of Mus musculus with 71 samples.

Results

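The data described here are the first 2 hrs of rosiglitazone (RSG) in 3T3-L1 adipocytes, 11 of the 71 arrays of a time course in mouse fat cells. The arrays were chosen by title, as all 3T3-L1 arrays at 1 and 2 hrs: 3 with RSG and 3 with DMSO at 1 hr, and 3 with RSG and 2 with DMSO at 2 hrs. The study followed 3T3-L1 and C3H/10T1/2 adipocytes from 1 to 48 hrs of treatment, and its other arrays serve here only for comparison. 3T3-L1 is an established line of mouse preadipocytes, fibroblast-like cells that fill with lipid when they are induced to differentiate.

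All cells, controls included, had been differentiated with insulin, isobutylmethylxanthine, dexamethasone and RSG at 100 nM. That mixture was given in the first days of differentiation only. Days in medium with insulin and then in plain medium followed, neither with RSG, and last came 24 hrs in a medium with albumin and no RSG. The RSG groups received 1 µM RSG in that same medium and the DMSO groups received the vehicle, so each comparison is of renewed exposure against cells that had been without the drug since early in differentiation. Per the methods, cells differentiated in 3 batches gave the 3 replicates, each a pool of 2 wells, so the p-values measure the spread between cultures of a single line. One more DMSO array at 2 hrs was not analysed here. The values are signal intensities on a linear scale, scaled by the authors to 1 target on every array.

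RSG is a thiazolidinedione and a ligand of PPARγ, a nuclear receptor that binds DNA as a heterodimer with the retinoid X receptor. In fat cells PPARγ sits at the regulatory regions of genes for lipid uptake, lipid storage and insulin action, and it is both needed for adipocyte formation and active in the mature cell. Because the receptor is already in the nucleus, RNA of its direct targets can change within a short time of adding ligand. Changes this early also include genes of signaling pathways and of transcription itself, which is why all functions were examined.

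The arrays carried the RNA of adipocytes. Adiponectin (Adipoq) averaged 8058 with RSG and 7529 with DMSO at 1 hr, and 8252 with RSG and 7552 with DMSO at 2 hrs, and all 8 adipocyte markers that could be tested were above the presence limit of 19.9 on all 11 arrays. That limit is the 95th percentile of the negative control probe sets, as in the methods. The 12 preadipocyte and fibroblast markers were also present on all 11 arrays, with a summed signal of 25992 to 28904 with RSG and 24295 to 30864 with DMSO at 1 hr, and 24560.2 to 28416 with RSG and 26145 to 27095 with DMSO at 2 hrs. None of their 20 probe sets passed the test, and the part of undifferentiated cells in any result was not tested. The 5 macrophage markers tested summed to 405 to 540.4 with RSG and 411 to 489 with DMSO at 1 hr, the endothelial and muscle markers to less, and no probe set of these 3 lists passed the test at either time. Over the 11 arrays the median signal ranged from 50.2 to 64.2, and the share of probe sets present from 67.78% to 73.92%. The RNA was taken from whole cultures, so a change per cell and a change in how many cells express a gene cannot be told apart.

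The promoters of 8 genes are shown because the results turn on them: the 6 genes that passed the test at both times, and Pck1 and Pdk4, 2 PPARγ targets with large early changes. Each sequence is the 250 bases before a RefSeq start on GRCm38.p6, read 5′ to 3′ on the strand of the gene. They are Amotl2 at chr9:102717554-102717803 (plus strand), Cited2 at chr10:17722978-17723227 (plus strand), G0s2 at chr1:193273189-193273438 (minus strand), Id3 at chr4:136143572-136143821 (plus strand), Pim3 at chr15:88861944-88862193 (plus strand), Rgs2 at chr1:144004150-144004399 (minus strand), Pck1 at chr2:173152823-173153072 (plus strand) and Pdk4 at chr6:5496279-5496528 (minus strand). Capitals mark AGGTCA, the half-site of PPAR response elements, or TGACG, the core of the cAMP response element, on either strand.
Amotl2: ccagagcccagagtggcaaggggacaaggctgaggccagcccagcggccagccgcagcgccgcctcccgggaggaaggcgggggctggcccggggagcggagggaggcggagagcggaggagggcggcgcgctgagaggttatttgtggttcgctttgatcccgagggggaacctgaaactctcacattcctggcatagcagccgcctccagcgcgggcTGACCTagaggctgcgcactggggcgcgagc
Cited2: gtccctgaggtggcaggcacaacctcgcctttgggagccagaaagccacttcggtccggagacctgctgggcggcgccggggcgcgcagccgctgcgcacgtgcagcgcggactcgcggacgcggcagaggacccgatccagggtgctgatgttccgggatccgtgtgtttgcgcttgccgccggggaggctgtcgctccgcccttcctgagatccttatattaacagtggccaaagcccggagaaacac
G0s2: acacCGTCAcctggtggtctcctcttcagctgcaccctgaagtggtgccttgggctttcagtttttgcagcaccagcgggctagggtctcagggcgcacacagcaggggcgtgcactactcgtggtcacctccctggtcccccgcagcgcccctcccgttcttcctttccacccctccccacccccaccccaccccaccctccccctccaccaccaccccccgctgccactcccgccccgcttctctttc
Id3: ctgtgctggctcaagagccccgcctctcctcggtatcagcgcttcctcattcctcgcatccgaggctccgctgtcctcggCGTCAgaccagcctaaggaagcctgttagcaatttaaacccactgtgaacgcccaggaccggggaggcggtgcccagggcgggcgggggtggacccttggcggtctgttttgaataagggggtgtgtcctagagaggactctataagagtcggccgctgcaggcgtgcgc
Pim3: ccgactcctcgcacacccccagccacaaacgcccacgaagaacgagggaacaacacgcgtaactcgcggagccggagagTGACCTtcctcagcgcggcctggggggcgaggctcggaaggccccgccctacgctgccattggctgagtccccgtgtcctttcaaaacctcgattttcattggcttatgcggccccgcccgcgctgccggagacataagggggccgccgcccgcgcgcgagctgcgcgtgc
Rgs2: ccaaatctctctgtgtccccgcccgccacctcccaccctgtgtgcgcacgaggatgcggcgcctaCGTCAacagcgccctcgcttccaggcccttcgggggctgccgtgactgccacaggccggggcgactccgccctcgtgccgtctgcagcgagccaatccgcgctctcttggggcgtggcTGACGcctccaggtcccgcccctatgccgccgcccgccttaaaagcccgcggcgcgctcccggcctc
Pck1: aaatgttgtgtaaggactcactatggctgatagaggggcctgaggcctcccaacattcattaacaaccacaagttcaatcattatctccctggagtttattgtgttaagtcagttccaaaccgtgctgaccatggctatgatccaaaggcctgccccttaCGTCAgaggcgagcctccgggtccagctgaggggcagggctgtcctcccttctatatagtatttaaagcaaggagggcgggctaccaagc
Pdk4: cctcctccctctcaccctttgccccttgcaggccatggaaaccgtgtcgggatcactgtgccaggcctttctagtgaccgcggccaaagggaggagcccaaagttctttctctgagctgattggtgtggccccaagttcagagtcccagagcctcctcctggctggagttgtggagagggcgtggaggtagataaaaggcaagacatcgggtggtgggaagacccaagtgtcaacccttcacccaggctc

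The half-site was found in the windows of Amotl2, at 31 to 26 bases before the start, and Pim3, at 171 to 166. The cAMP core was found in G0s2 at 246 to 242 bases before the start, in Id3 at 170 to 166, in Pck1 at 90 to 86, and in Rgs2 at both 185 to 181 and 67 to 63. The windows of Cited2 and Pdk4 held neither. Of the 39 genes called in any comparison described below, 32 had a promoter in the RefSeq table, 38 windows in all. AGGTCA was in 18.4% of these 38 windows, against 14% of all 32851 windows, and a direct repeat of it with 1 base between was in 0 of the 38 and in 0.0335% of all. TGACG was in 42.1% of the 38 windows and 17.8% of all, and the median GC content was 63.2% in the 38 and 52.4% in all. These are counts of letters and say nothing of binding, and the part of GC content in them was not tested.

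At 1 hr, 13 of 17401 probe sets (0.0747%) differed between RSG and DMSO at an adjusted p under 0.05 (limma, Benjamini-Hochberg adjustment over all probe sets), 7 higher (0.0402%) and 6 lower (0.0345%) with RSG. They belong to 12 genes. G0s2, Pdk4, Amotl2, Id3, Gadd45g, Pim3 and H2-Oa rose, and Rgs2, Cited2, Nfatc1, Rsrp1 and Tfr2 fell. Unadjusted, 739 probe sets (4.25%) had a p under 0.05. For all tested probe sets the median log2 change was 0.04 at 1 hr and 0.00 at 2 hrs.

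G0s2, whose protein inhibits the lipase that opens the breakdown of stored fat, gave signals of 2193, 2304 and 2135 with RSG for 1 hr and 996, 1054 and 1117 with DMSO. At 2 hrs it gave 2072, 2274 and 3225 with RSG and 1164 and 1163 with DMSO. Every RSG array was above every DMSO array at both times. The increase was 2.1-fold at 1 hr (log2 change 1.07 ± 0.14 SE, adjusted p 0.000372 by limma) and 2.13-fold at 2 hrs (1.09 ± 0.16, adjusted p 0.000312). Non-overlap alone is common with so few arrays, since 7.84% of all probe sets showed it at 1 hr and 19.5% at 2 hrs.

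Pdk4, the kinase that switches off pyruvate dehydrogenase and so spares glucose, gave 298, 235 and 350.3 with RSG for 1 hr and 105, 103 and 152 with DMSO. At 2 hrs the signals were 271, 233 and 311 with RSG and 138 and 157 with DMSO. RSG arrays lay above DMSO arrays both times. The fold change was 2.46 at 1 hr (log2 change 1.30 ± 0.19, adjusted p 0.000572 by limma). At 2 hrs it was 1.83 (0.87 ± 0.21, adjusted p 0.0995) and missed the threshold. The 2 hr change passed in a fit that also took in the arrays of the other cell line (adjusted p 0.028 by limma).

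Id3 encodes a helix-loop-helix protein without a DNA-binding region that holds other such factors off DNA. Its signals were 213, 192 and 176 with RSG for 1 hr and 92.7, 98.5 and 91.7 with DMSO, and 138, 165 and 190.4 with RSG for 2 hrs and 54.5 and 55.6 with DMSO. RSG arrays were higher without overlap, by 2.05-fold at 1 hr (log2 change 1.04 ± 0.20, adjusted p 0.0206 by limma) and 2.96-fold at 2 hrs (1.57 ± 0.22, adjusted p 0.000206).

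Amotl2, a scaffold of cell junctions that binds the YAP coactivator, stood at 288, 268 and 266 with RSG for 1 hr and 150.3, 127 and 142 with DMSO. With 2 hrs of RSG it stood at 291, 226 and 257, and with DMSO at 101 and 108. The 2 groups were apart at both times, at 1.96-fold (log2 change 0.97 ± 0.16, adjusted p 0.00383 by limma) and 2.46-fold (1.30 ± 0.18, adjusted p 0.000206).

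Pim3, a serine/threonine kinase of the PIM family, was read by 3 tested probe sets. The brightest gave 2874, 2708 and 2464 with RSG for 1 hr and 1681, 1679 and 1484 with DMSO, and 2513, 2914 and 2461 with RSG for 2 hrs and 1129 and 1147 with DMSO. It rose 1.66-fold at 1 hr (adjusted p 0.0209 by limma) and 2.3-fold at 2 hrs (adjusted p 7.73e-05), with no overlap of arrays. The second probe set rose 2.24-fold at 2 hrs and was at an adjusted p of 0.0538 at 1 hr, and the dimmest one did not pass.

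Gadd45g, a stress and growth-arrest gene whose protein activates a kinase upstream of p38 and JNK, gave 153, 136 and 100.3 with RSG for 1 hr and 58.3, 69 and 55.2 with DMSO. At 2 hrs it gave 85.8, 99 and 106 with RSG and 43.2 and 60 with DMSO. The arrays did not overlap at either time. The fold was 2.11 at 1 hr (log2 change 1.08 ± 0.21, adjusted p 0.027 by limma) and 1.9 at 2 hrs (0.92 ± 0.24, adjusted p 0.155).

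Rgs2, which speeds the switching-off of Gq proteins after receptor activation, fell on both of its probe sets. The brighter one gave 563, 696 and 684 with RSG for 1 hr and 1121, 1287 and 1319.8 with DMSO, and 628, 644 and 663 with RSG for 2 hrs and 1299 and 1252 with DMSO. RSG arrays lay well below DMSO arrays and hardly differed between the times. The level was 1.92-fold lower at 1 hr (log2 change -0.94 ± 0.15, adjusted p 0.00145 by limma) and 1.98-fold lower at 2 hrs (-0.98 ± 0.16, adjusted p 0.00199). The other probe set was 1.95-fold and 1.93-fold lower.

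Cited2, a coregulator that binds the acetyltransferases CBP and p300, was likewise low on RSG arrays. Its brighter probe set read 315, 304 and 227 with RSG for 1 hr and 736, 555 and 598 with DMSO, and 286, 194 and 244 with RSG for 2 hrs and 529 and 612 with DMSO. No arrays overlapped, and the level was 2.24-fold lower at 1 hr (log2 change -1.16 ± 0.17, adjusted p 0.000572 by limma) and 2.39-fold lower at 2 hrs (-1.25 ± 0.19, adjusted p 0.000416). The second probe set fell 2.46-fold at 2 hrs and had an adjusted p of 0.0649 at 1 hr.

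**Figure D1:**
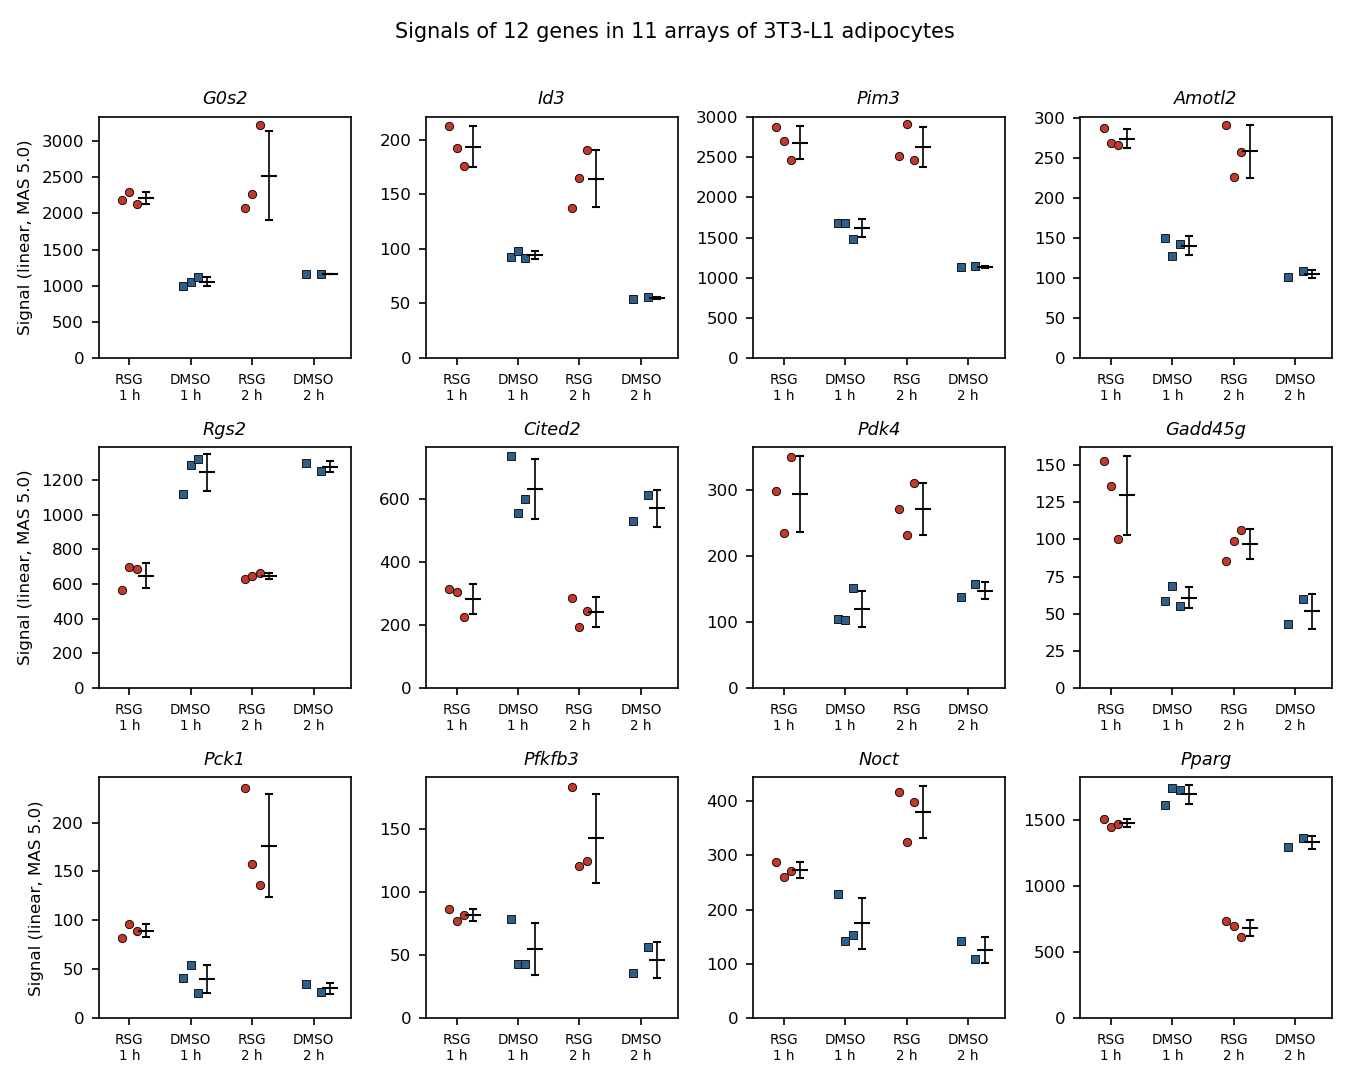
Signal intensity of 12 genes on each 3T3-L1 array (linear axis from 0), RSG as red circles left of DMSO as blue squares, at 1 and 2 hrs, with the mean and SD of each group beside the points. G0s2, Id3, Pim3, Amotl2, Rgs2 and Cited2 were apart at both times, while the gap in Pparg was wide only at 2 hrs, with 735, 698 and 614 with RSG and 1294 and 1367 with DMSO.

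The other 4 calls at 1 hr rested on dim probe sets. Where a fold is given as "at least", the p-value belongs to the fitted log2 change and not to that bound. The fitted change includes the values under the presence limit. H2-Oa, a chain of a class II histocompatibility molecule, read 45.6, 41 and 37 with RSG for 1 hr and 8, 7.7 and 18.1 with DMSO. All DMSO arrays were under the presence limit, so it was at least 2.06-fold higher (adjusted p 0.0468 by limma), and at 2 hrs it read 19.9, 34.2 and 23.3 with RSG and 36.9 and 29.8 with DMSO. The groups overlapped at 2 hrs, where it did not pass. Rsrp1, read by 3 probe sets, was at least 1.49-fold lower with RSG on one of them at 1 hr (adjusted p 0.0206 by limma), with 10.3, 2.8 and 8.2 against 31.4, 39.7 and 21.1 with DMSO. Its 2 brighter probe sets did not pass and had log2 changes averaged over both times of -0.08 and 0.15.

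Tfr2, the second transferrin receptor, which takes part in iron sensing, had RSG below DMSO at 1 hr and above it at 2 hrs on one of its probe sets. It read 5.1, 17.1 and 4.7 with RSG for 1 hr and 31.9, 67.8 and 25.4 with DMSO, at least 1.91-fold lower (adjusted p 0.0169 by limma). With 2 hrs of RSG it read 26.8, 24.8 and 31.1, and with DMSO 8.4 and 14 (adjusted p 0.751). The brighter probe set had an averaged log2 change of 0.16 and did not pass. Nfatc1, a transcription factor activated by calcineurin, gave 17.4, 10.2 and 44.2 with RSG for 1 hr and 84.2, 81.2 and 45 with DMSO, 3.4-fold lower (log2 change -1.76 ± 0.36, adjusted p 0.0481 by limma). Of its RSG arrays 2 were under the presence limit and the third nearly met the lowest DMSO array, and at 2 hrs the log2 change was 0.18 ± 0.41. The other Nfatc1 probe set, with a log2 change of -0.26 at 1 hr, did not pass.

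The 1 hr calls of G0s2, Pdk4, Amotl2, Rgs2 and Cited2 were kept whichever single array was left out. Each of the other 7 genes lost its call without at least 1 array, with a highest adjusted p of 0.181 for Id3, 0.22 for Pim3, 0.322 for Gadd45g, 0.259 for Tfr2, 0.373 for Rsrp1, 0.342 for H2-Oa and 0.754 for Nfatc1 (limma). The number of calls was 8 without the second RSG array of 1 hr, and 7 of those 8 were among the 13. Of the rises, 3 were called without the first RSG array, 4 without the second and 4 without the third DMSO array, in place of 7.

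At 2 hrs, RSG and DMSO differed on 31 probe sets (0.178%), 20 higher (0.115%) and 11 lower (0.0632%), from 25 genes, and 752 (4.32%) had an unadjusted p under 0.05. The 6 genes called at both times were G0s2, Id3, Amotl2, Pim3, Rgs2 and Cited2. The calls made at 2 hrs and not at 1 hr included genes for enzymes of glycerol and glucose metabolism, a fatty acid carrier, coregulators and PPARγ itself.

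Pck1, the cytosolic enzyme that lets fat cells make glycerol phosphate from pyruvate, gave 236, 157 and 136 with RSG for 2 hrs and 34.6 and 26.8 with DMSO. Already at 1 hr it gave 82.5, 96 and 89.6 with RSG and 41, 54.1 and 25.7 with DMSO. All RSG arrays exceeded all DMSO arrays. The rise was 5.63-fold at 2 hrs (log2 change 2.49 ± 0.32, adjusted p 7.73e-05 by limma) and 2.32-fold at 1 hr (1.21 ± 0.29, adjusted p 0.218). The 1 hr rise passed in a fit that also took in the arrays of the other cell line (adjusted p 0.0071 by limma). A second, dim Pck1 probe set had an averaged log2 change of 0.20 and did not pass.

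Pfkfb3 makes fructose 2,6-bisphosphate, the activator of glycolysis. It gave 183, 120.2 and 124 with RSG for 2 hrs and 36 and 56.1 with DMSO, a 3.11-fold increase without overlap (log2 change 1.64 ± 0.30, adjusted p 0.00538 by limma). At 1 hr the signals were 86.8, 77 and 82.1 with RSG and 78.5, 42.9 and 42.9 with DMSO, and the groups overlapped. The other Pfkfb3 probe set had an averaged log2 change of 0.50 and did not pass. Noct, or nocturnin, a phosphatase with a daily rhythm of expression, gave 416, 325 and 397 with RSG for 2 hrs and 143 and 108 with DMSO, 3.03-fold higher (1.60 ± 0.21, adjusted p 7.73e-05 by limma). Its values at 1 hr were 288, 259.8 and 271 with RSG and 229, 143 and 153 with DMSO, apart but not past the threshold (adjusted p 0.584).

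Fabp4, the fatty acid carrier of adipocytes, was read by 4 probe sets that did not behave alike. The one at 762, 204 and 414 with RSG for 2 hrs and 73.1 and 82.2 with DMSO rose 5.17-fold (log2 change 2.37 ± 0.43, adjusted p 0.00512 by limma), and the one at 413, 277 and 304 with RSG and 105 and 109.7 with DMSO rose 3.04-fold (adjusted p 0.00313). The 2 brighter probe sets, which averaged 6227 and 1358 with RSG and 5457 and 1129 with DMSO at 2 hrs, did not pass. Their log2 changes averaged over both times were 0.14 and 0.43. What part of the gene each probe set reads was not examined.

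**Figure D2:**
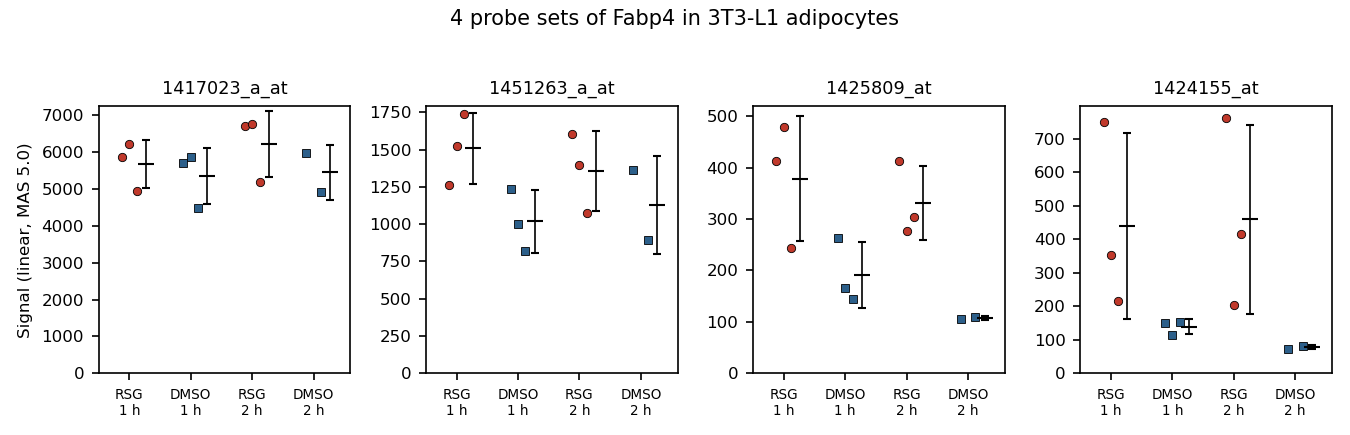
Signal intensity of the 4 Fabp4 probe sets on each 3T3-L1 array, 1 panel each, RSG (red circles) left of DMSO (blue squares) at 1 and 2 hrs, with group mean and SD. The 2 probe sets with the lower signals separated RSG from DMSO at 2 hrs, and the 2 with the higher signals did not pass the test.

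PPARγ itself fell. Pparg gave 735, 698 and 614 with RSG for 2 hrs and 1294 and 1367 with DMSO, while at 1 hr it had given 1509, 1446 and 1473 with RSG and 1612, 1741 and 1731 with DMSO. RSG arrays were below DMSO arrays both times, little so at 1 hr, and the level was 1.95-fold lower at 2 hrs (log2 change -0.97 ± 0.19, adjusted p 0.013 by limma). The call was lost without either DMSO array of 2 hrs or without the third RSG array (highest adjusted p 0.266), and the log2 change then stayed between -1.02 and -0.89.

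Among coregulators, Id4, a second inhibitor of helix-loop-helix factors, moved the other way from Id3. It gave 27.2, 27.8 and 22.5 with RSG for 2 hrs and 112 and 79.7 with DMSO, 3.68-fold lower (log2 change -1.88 ± 0.29, adjusted p 0.00053 by limma). The brighter of its probe sets gave 59, 66.2 and 47.7 with RSG and 208 and 143 with DMSO, 3.02-fold lower (adjusted p 0.00313). Both calls were lost without the second DMSO array of 2 hrs (adjusted p 0.0526 and 0.184).

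Tle3, a corepressor of the Groucho family that works with PPARγ in mouse adipocytes, gave 204, 185 and 164 with RSG for 2 hrs and 93.5 and 96.6 with DMSO, a 1.93-fold rise without overlap (adjusted p 0.00313 by limma). Its 2 other probe sets had averaged log2 changes of 0.225 and 0.626 and did not pass. Ppargc1b, the coactivator PGC-1β, gave 200.4, 196 and 192 with RSG and 79 and 127 with DMSO at 2 hrs, 1.96-fold higher (adjusted p 0.017 by limma). At 1 hr Ppargc1b gave 213, 220.3 and 203 with RSG and 208, 185 and 159 with DMSO, with overlap. Its sister Ppargc1a averaged 44.2 with RSG and 48.6 with DMSO at 2 hrs and did not pass.

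Nr4a1, an orphan nuclear receptor and an immediate early gene, gave 445, 290.1 and 368 with RSG for 2 hrs and 161 and 193 with DMSO, 2.06-fold higher (adjusted p 0.0243 by limma). At 1 hr it gave 559.7, 411 and 491 with RSG and 511, 243 and 383 with DMSO, so the groups overlapped, and the DMSO arrays of 2 hrs lay below those of 1 hr. Smad6, an inhibitor of BMP signaling, gave 248, 232 and 284 with RSG for 2 hrs and 157 and 154 with DMSO (1.63-fold, adjusted p 0.047 by limma). Phlda3, a pleckstrin-domain protein that restrains Akt, gave 968, 899 and 1072 with RSG for 2 hrs and 522 and 551 with DMSO (1.82-fold, adjusted p 0.000312 by limma).

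Dolk, the kinase that makes dolichol phosphate for glycosylation, gave 664, 588 and 836 with RSG for 2 hrs and 402 and 389.6 with DMSO (1.74-fold, adjusted p 0.00304 by limma). Armcx4, Rab22a, a small GTPase of endosomes, and Pvr, an adhesion molecule of the immunoglobulin family, rose 1.88-fold, 2.18-fold and 2.23-fold at 2 hrs (adjusted p 0.043, 0.0244 and 0.0129). For Rab22a and Pvr this was 1 probe set of 3 and 1 of 5. The phosphatase Dusp9, which acts on MAP kinases, read 38.5, 51.9 and 33.3 with RSG for 2 hrs and 4.1 and 1.1 with DMSO. It was at least 2.04-fold higher on this probe set, and its 2 other probe sets did not pass. The adjusted p of 0.00118 (limma) belongs to the fitted change, which includes the DMSO values under the presence limit.

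The falls at 2 hrs included Herpud1, which serves protein disposal at the endoplasmic reticulum, with 168, 189 and 212 with RSG and 355 and 403 with DMSO. It was 2.01-fold lower (adjusted p 0.0204 by limma) on this probe set and averaged 439 with RSG and 474 with DMSO on the other, which did not pass. Cdc42ep3, an effector of the GTPase Cdc42, fell on both probe sets, 1.85-fold and 2.03-fold (adjusted p 0.00865 and 0.00382). Pde7a, a phosphodiesterase that breaks down cAMP, read 8.4, 7.8 and 6.2 with RSG and 52 and 46.7 with DMSO, at least 2.48-fold lower on 1 of 4 probe sets (adjusted p 0.00166 by limma), and the others had averaged log2 changes of -0.23 to -0.06.

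With only 2 DMSO arrays, the 2 hr calls leaned on each of them. Amotl2, Cited2, G0s2, Id3, Noct, Pck1, Phlda3 and Pim3 kept a call whichever single array was left out. For Cited2 and Pim3 this was the brighter probe set, and the second called one lost its call (highest adjusted p 0.554 and 0.057 by limma). Without the second DMSO array 23 probe sets were called, 21 higher and 2 lower, with 11 of them among the 31. Without the third also 23 were called, 17 higher and 6 lower, with 16 among the 31. So of the 11 falls called, most depended on the second DMSO array. The calls of Armcx4, Smad6, Nr4a1, Herpud1, Ppargc1b, Pvr, Rab22a, Pfkfb3 and Cdc42ep3 (1 of its 2 probe sets) had a highest adjusted p of 0.492, 0.46, 0.428, 0.45, 0.69, 0.574, 0.833, 0.305 and 0.254 in that order. The other Cdc42ep3 probe set also lost its call, with a highest adjusted p of 0.0922. For Fabp4, Tle3, Dolk, Dusp9, Pde7a and Rgs2 it was between 0.0518 and 0.14, and all of these 6 lost a call without a DMSO array of 2 hrs.

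Averaged over both times, 39 probe sets (0.224%) differed, 25 higher (0.144%) and 14 lower (0.0805%) with RSG. Of these, 11 had been called at neither time: probe sets of 8 genes, and 1 probe set with no gene in the annotation. Cebpb, an early adipogenic transcription factor, gave 1848, 1432 and 1391 with RSG for 1 hr and 1022, 903 and 997 with DMSO, and 1602, 1424 and 1148 with RSG for 2 hrs and 779.6 and 864 with DMSO. No arrays overlapped, and it rose 1.63-fold on average (log2 change 0.71 ± 0.14, adjusted p 0.00981 by limma), and 1.73-fold on a second probe set.

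Angptl4, a secreted inhibitor of lipoprotein lipase, gave 3159.9, 3070 and 2796 with RSG for 1 hr and 2215, 2357 and 2019.6 with DMSO, and 2657, 2717 and 2438 with RSG for 2 hrs and 1943 and 1942 with DMSO. It was higher without overlap at both times and 1.35-fold higher on average (log2 change 0.44 ± 0.08, adjusted p 0.00838 by limma). Hmgcs1, an enzyme of cholesterol synthesis, Klf9, a Krüppel-like factor, and 2010003K11Rik rose 1.5-fold, 1.27-fold and 1.49-fold on average (adjusted p 0.0377, 0.0359 and 0.0433). Klf9 was called on 1 of 7 probe sets and the other 6 had averaged log2 changes of 0.22 to 0.52.

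Ppp1r3c, which brings protein phosphatase 1 to glycogen, gave 456, 762 and 899 with RSG for 1 hr and 831, 1225 and 1261 with DMSO. At 2 hrs it gave 468, 635 and 683 with RSG and 1274 and 1306 with DMSO, and only the 1 hr arrays overlapped. It was 1.88-fold lower on average (log2 change -0.91 ± 0.20, adjusted p 0.0341 by limma). The other Ppp1r3c probe set had an averaged log2 change of -0.70 and did not pass. Rgs3, a relative of Rgs2, was 1.38-fold and 1.66-fold lower on 2 probe sets (adjusted p 0.0138 and 0.00759), while the other tested one had a log2 change of 0.09. Rtraf, an RNA-binding protein, was 1.49-fold lower on 1 of 3 probe sets (adjusted p 0.0359).

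With the replicate number as a block, 65 probe sets were called on average in place of 39, and all 39 were among them. On average, 19 of the 38 calls with a gene were kept whichever array was left out, and the average call of Pparg (adjusted p 0.0377) was lost without any 1 of the 11. The probe sets called lower numbered 7 without the second and 8 without the third DMSO array of 2 hrs, and 9 without the third RSG or the third DMSO array of 1 hr, in place of 14.

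**Figure D3:**
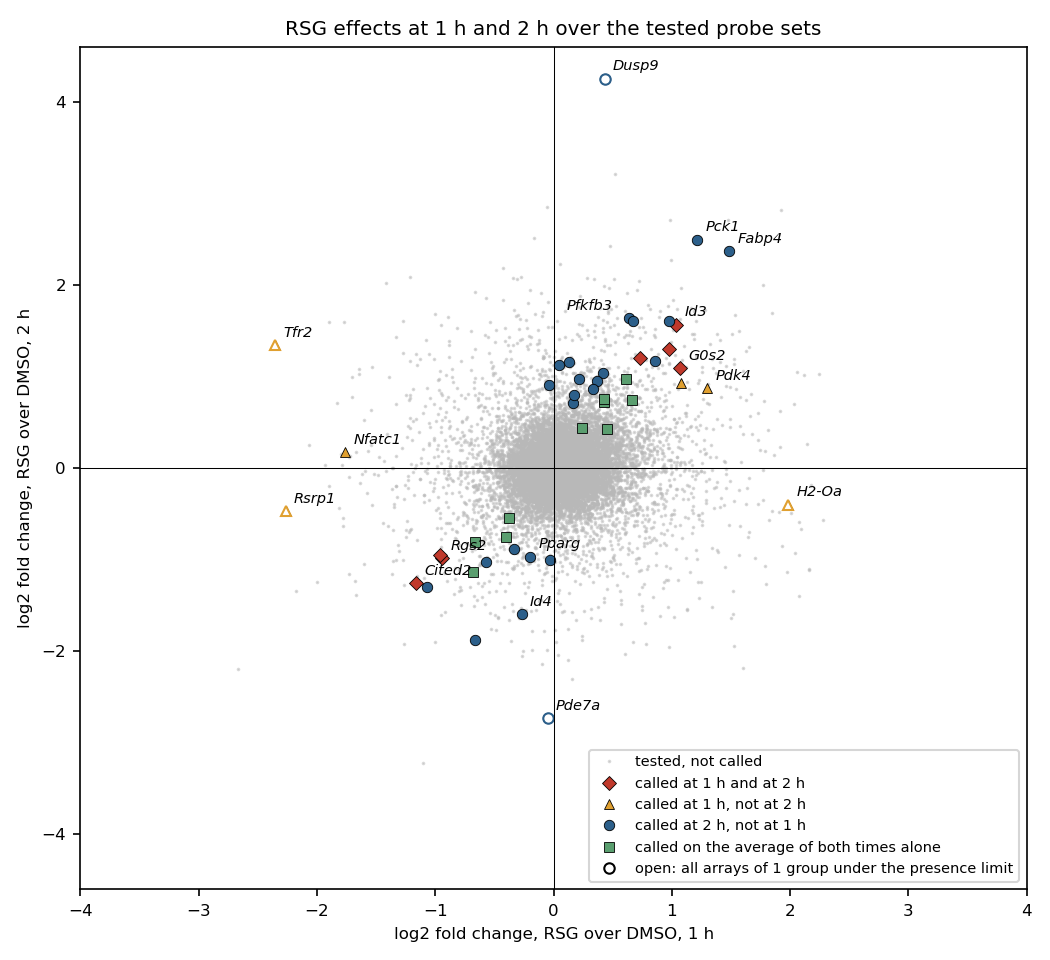
Log2 fold change, RSG over DMSO, at 1 hr (horizontal) and 2 hrs (vertical) for 17401 probe sets in grey, with called ones coloured by the comparison that called them and drawn open where all arrays of a group were under the presence limit, so that the fitted value is no bound. Of those called at both times, Rgs2 lies near the diagonal at -0.94 and -0.98, and Id3 lies above it at 1.04 and 1.57. Pck1, called at 2 hrs and not at 1 hr, lies above it at 1.21 and 2.49. The difference between the times passed for none of the 17401 probe sets.

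Each time was read on arrays that the other did not use, but both tests used the same estimate of spread. A probe set with a low estimate is favoured at both times, so the counts below are not an independent test. Of the 13 probe sets called at 1 hr, 10 had the same direction at 2 hrs, 9 of them at an unadjusted p under 0.05, a level that 4.32% of all probe sets reached at 2 hrs in either direction. Tfr2 had the opposite direction at that level. Of the 31 called at 2 hrs, 30 had the same direction at 1 hr, 20 of them at an unadjusted p under 0.05, against 4.25% of all probe sets.

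The difference between the 2 hr and the 1 hr effect was tested directly, and 0 of 17401 probe sets passed (limma), while 498 (2.86%) had an unadjusted p under 0.05. The gene nearest to passing was Tfr2, with a difference of 3.69 on the log2 scale (adjusted p 0.0586), much of it from arrays under the presence limit. Among well-measured genes the difference was 1.28 for Pck1 (unadjusted p 0.0057), 0.93 for Noct (0.0024), 0.63 for Dolk (0.002) and -0.77 for Pparg (0.0053), none past the adjustment. On the dimmer Id4 probe set, with RSG arrays near the presence limit at 2 hrs, it was -1.21 (unadjusted p 0.0036) and did not pass either. So a gene called at 2 hrs alone was not shown to respond later than one called at both times. With the replicate number as a block, Tfr2 and 1 probe set of Lrp6, a coreceptor of Wnt signaling named after its value was seen, passed this test (adjusted p 0.0378 for each by limma). Tfr2 also passed without the second RSG array or the third DMSO array of 1 hr (adjusted p 0.00119 and 0.0329).

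The genes were also read by function. The lists were chosen with earlier results of these data known, so the counts below are not an independent test. Of all probe sets, 0.0747% were called at 1 hr, 0.178% at 2 hrs and 0.224% on average, in either direction. Of 39 tested PPARγ targets and lipid storage genes (67 probe sets), 2 probe sets rose at 1 hr, 4 at 2 hrs and 6 on average, and none fell. The called genes were Pck1, Fabp4, Pdk4, G0s2 and Angptl4. At an unadjusted p under 0.05, 15 probe sets were higher and 0 lower on average, where 3.87% and 1.6% of all probe sets were. The median log2 change of the list was 0.09 at 1 hr and 0.21 at 2 hrs, against 0.03 and 0.01 over 10169 genes. The glycerol channel Aqp7 averaged 191.9 with RSG and 112.7 with DMSO at 2 hrs and the lipid droplet protein Cidec 3604 with RSG and 2383 with DMSO, neither past the threshold on average (adjusted p 0.594 and 0.663 by limma). Adipoq, Lpl and Scd1 had averaged log2 changes of 0.12, 0.10 and 0.18, and Fasn of -0.03, none past the threshold.

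Of 24 genes on the list of nuclear receptors and adipogenic factors, Pparg fell and Cebpb rose, and no other passed. Nr4a1, also a nuclear receptor and called, was counted with the immediate early genes. Cebpa averaged 1925 with RSG and 1709 with DMSO at 2 hrs, Rxrb 310.0 with RSG and 389 with DMSO, and Gata2 107.9 with RSG and 75.8 with DMSO. Of 50 probe sets for 26 coregulators, 3 rose and 4 fell at 2 hrs, from Id3, Tle3, Ppargc1b, Cited2 and Id4. Of all probe sets, 0.115% rose and 0.0632% fell at that time. Nrip1, or RIP140, averaged 371.6 with RSG and 245.6 with DMSO at 2 hrs and did not pass.

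Among 46 immediate early genes (77 probe sets), Gadd45g rose at 1 hr and Nr4a1 at 2 hrs, and on average 5 probe sets rose, from Gadd45g, Nr4a1, Cebpb and Klf9, and none fell. At an unadjusted p under 0.05, 15 probe sets were higher and 15 lower on average, where 3.87% and 1.6% of all probe sets were. The list's median log2 change was -0.09 on average, below the 0.02 of all genes. Nr4a2 averaged 48.5 with RSG and 29.4 with DMSO at 2 hrs, Plk2 13.1 with RSG and 37.4 with DMSO, and Atf3 7.3 with RSG and 18.1 with DMSO, none past the threshold. Noct was the 1 call among 19 clock genes, and Per2, Bhlhe41 and Clock had averaged log2 changes of -0.57, 0.50 and 0.40 that did not pass.

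In G protein and cAMP signaling (29 genes, 49 probe sets) only falls were called, 2 at 1 hr, 3 at 2 hrs and 5 on average, from Rgs2, Rgs3 and Pde7a. The 5 were 2 probe sets each of Rgs2 and Rgs3 and 1 of Pde7a. Falls over all probe sets were 0.0345%, 0.0632% and 0.0805% in the same order of times. Rgs4 and Pde8a, with averaged log2 changes of -0.54 and 0.49, did not pass. Of 29 genes on the list of kinases, phosphatases and their regulators, Pim3 rose and Ppp1r3c fell. The called phosphatase Dusp9 and the called kinases Pdk4 and Dolk were not on this list. The feedback inhibitor Spry4 averaged 23.9 with RSG and 5.53 with DMSO at 1 hr, and the pseudokinase Trib2 33.3 with RSG and 67.9 with DMSO at 2 hrs, and neither passed on average (adjusted p 0.9 and 0.12 by limma).

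Of 27 insulin and glucose genes, Pfkfb3 rose and Ppp1r3c fell, while Grb10, Insr and Slc2a1 (averaged log2 changes of 0.53, 0.38 and -0.15) did not pass. Amotl2, higher at both times, and Smad6, higher at 2 hrs, were the calls among 27 genes (42 probe sets) of TGF-beta, BMP, Wnt and YAP responses. Of all probe sets, 0.0402% were called higher at 1 hr and 0.115% at 2 hrs. Among 35 stress genes Herpud1 alone was called, and Ddit4 averaged 99.4 with RSG and 175.8 with DMSO at 2 hrs without passing. In cholesterol and fatty acid synthesis (25 genes) Hmgcs1 was called on 1 of 4 probe sets. The other 3 had averaged log2 changes of 0.35 to 0.53.

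None of 50 probe sets for 36 chemokines, cytokines and acute phase genes was called by limma. At an unadjusted p under 0.05 on average 5 were higher and 0 lower, where 3.87% and 1.6% of all probe sets were. The nearest was Tnfaip2, which averaged 280.4 with RSG and 192.6 with DMSO at 2 hrs (averaged adjusted p 0.052). Lif, a cytokine of the interleukin-6 family, averaged 33.3 with RSG and 8.97 with DMSO at 1 hr (averaged adjusted p 0.28). Tnfaip2 and Lif passed on average in a fit that also took in the arrays of the other cell line (adjusted p 0.016 and 0.043 by limma).

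The same probe sets were followed on the 24 later 3T3-L1 arrays, which none of the calls used except through the shared estimate of spread. Of the 48 probe sets called at 1 hr, 2 hrs or on average, 44, 42, 44 and 42 kept their direction at 4, 7, 24 and 48 hrs, and 30, 28, 34 and 32 passed the test again. The share of all probe sets called at those times was 0.747%, 2.11%, 12.2% and 14.8%. Nfatc1 and Pde7a passed in the opposite direction at 48 hrs, with log2 changes of 1.11 and 1.53.

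Some changes lasted. The log2 change of Pfkfb3 was 2.34, 2.46, 2.49 and 2.28 at 4, 7, 24 and 48 hrs, that of Noct 1.74, 1.70, 1.75 and 1.88, and that of Pck1 2.35, 2.35, 1.96 and 2.38. Pim3, Rgs2 and Gadd45g were among those that passed at every later time, as was Pparg, which stayed low at -1.38, -1.09, -1.03 and -0.83. Pdk4 had a second rise, with log2 changes of 0.14, 0.53, 1.83 and 2.66, of which the last 2 passed. Nr4a1 had 0.05, -0.15, -0.21 and 0.28 and passed at no later time. Ppp1r3c fell at 4 and 7 hrs (-1.06 and -0.95) and not at 24 and 48 hrs (-0.26 and 0.07). H2-Oa, Rsrp1, Tfr2, Dusp9, Rab22a and Klf9 also had no later call.

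**Figure D4:**
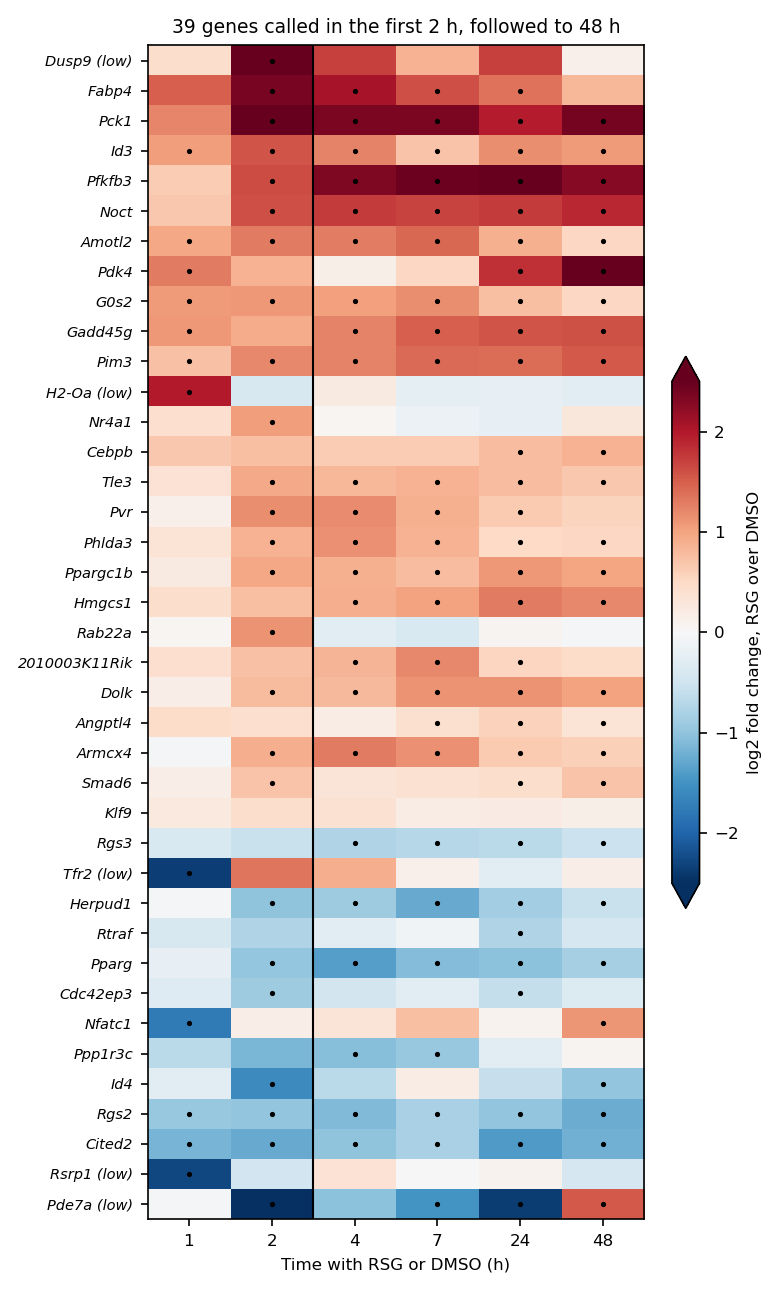
Heat map of log2 fold change, RSG over DMSO, for the 39 called genes (vertical) at 1 to 48 hrs (horizontal), red for higher and blue for lower with RSG, colours ending at ±2.5. Dots mark an adjusted p under 0.05, the line follows 2 hrs, and "(low)" marks genes with all arrays of 1 early group under the presence limit. Pfkfb3, Noct, Pck1 and Pparg hold their colour to 48 hrs, and Nr4a1 does not.

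C3H/10T1/2 adipocytes, differentiated from mouse embryo fibroblasts with a higher dose of RSG that was present until the 24 hrs without it, were read at the same times (12 arrays). Averaged over both times, 42 of the 48 probe sets had the same direction there, 29 at an unadjusted p under 0.05 and 20 past adjustment, against 3.72% and 0.26% of all 17679 probe sets in either direction. On average none had the opposite direction at an unadjusted p under 0.05, and at 2 hrs 1 did, Nr4a1, with a log2 change of 1.04 in 3T3-L1 cells and -0.50 in the C3H/10T1/2 line (unadjusted p 0.0167, adjusted p 0.877 by limma). The averaged log2 change of Pdk4 was 1.08 in 3T3-L1 cells and 1.33 in the C3H/10T1/2 line, and in the same order it was 1.08 and 1.42 for G0s2, 1.01 and 1.09 for the second Pim3 probe set, -0.58 and -0.50 for Pparg, and 1.14 and 0.84 for Noct, each past adjustment in both lines.

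The difference between the lines was tested and 0 of 17679 probe sets passed (limma), with 621 (3.51%) at an unadjusted p under 0.05. Among the 48 called probe sets those nearest to passing were of Nr4a1 and Pck1. Nr4a1 had an averaged log2 change of 0.73 in 3T3-L1 adipocytes, against -0.25 in C3H/10T1/2 adipocytes, a difference of 0.98 ± 0.21 (unadjusted p 1.81e-05, adjusted p 0.186 by limma), which passed only without the first 3T3-L1 DMSO array of 1 hr (1.10, adjusted p 0.0269). Pck1 had 1.85 and 0.82 (unadjusted p 9.57e-05, adjusted p 0.423 by limma), and at 1 hr 1.21 in 3T3-L1 cells and 0.16 in the C3H/10T1/2 line. Lif, not among the called genes, came as near as Nr4a1, with averaged log2 changes of 1.55 in 3T3-L1 cells and -0.83 in the C3H/10T1/2 line, a difference of 2.38 ± 0.51 (unadjusted p 2.1e-05, adjusted p 0.186 by limma), and all 5 of its 3T3-L1 DMSO arrays were under the presence limit. Phlda3, Id4 on its dimmer probe set and Hmgcs1 had differences of 0.40, -1.32 and 0.53, none past adjustment.

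**Figure D5:**
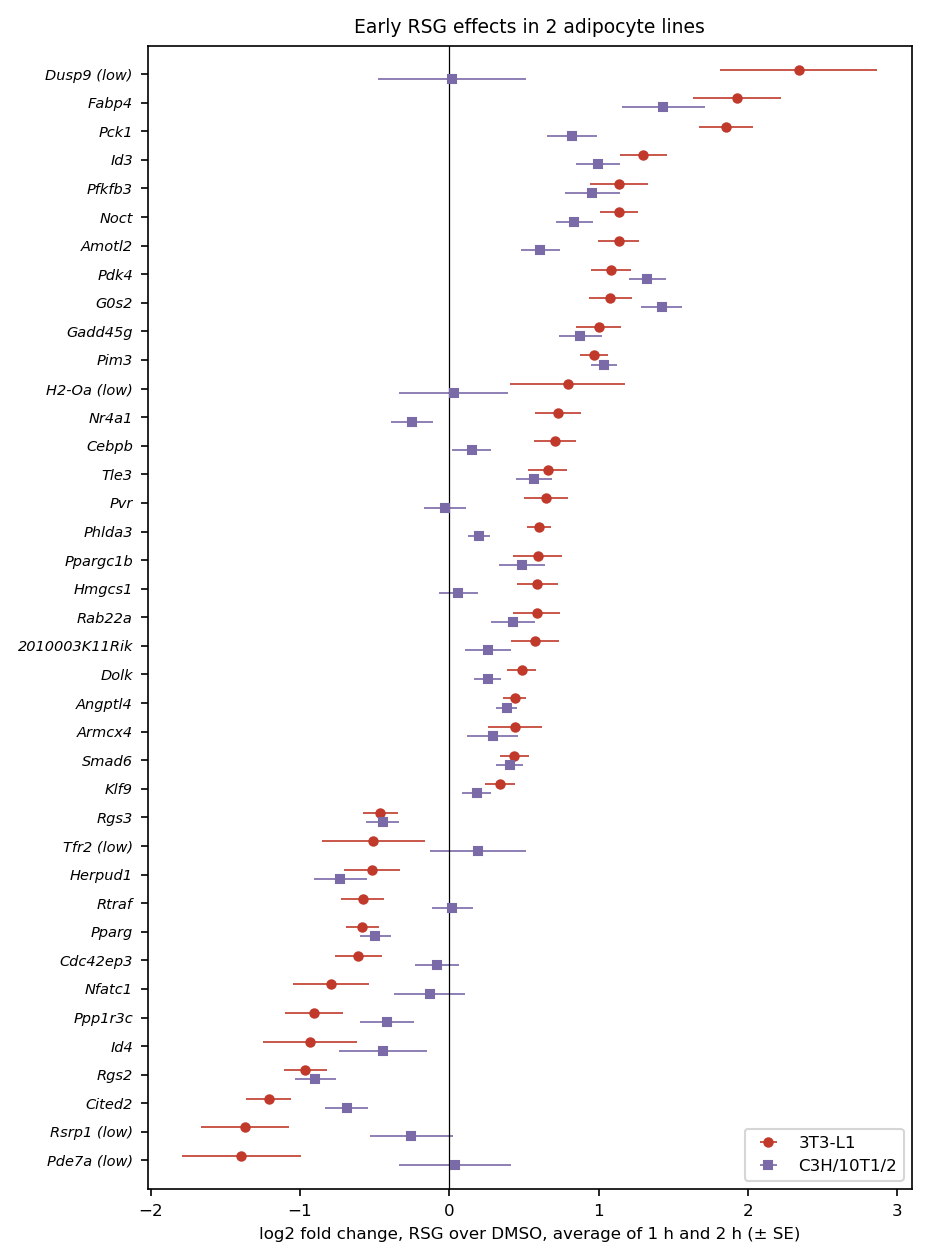
Log2 fold change, RSG over DMSO, averaged over 1 and 2 hrs, with its standard error as a bar, for the 39 genes called in 3T3-L1 adipocytes, 3T3-L1 as circles above C3H/10T1/2 as squares. The pairs lie close for Pdk4, G0s2, Pim3 and Pparg, and Nr4a1 lies on either side of 0, at 0.73 and -0.25.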

How the data were processed

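RNA of adipocytes from the 3T3-L1 and C3H/10T1/2 lines was hybridized to Affymetrix mouse 430A arrays, 71 in all, of which the 11 of 3T3-L1 adipocytes at 1 and 2 hrs are described. The authors deposited 1 table of signal intensities on a linear scale, made with MAS5 and scaled to one target per array (trimmed means here of 150.05 to 150.07). Further details of the scaling are not given in the sources used here. Of 22690 probe sets, 64 controls were set aside. The supplied annotation gave 1 gene for 20380 of the other 22626, several for 691 and none for 1555. The 132 values of 0 were set to 0.1 and log2 was taken, with no further normalization. The number of arrays limits the precision.

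Probe sets with at least 1 mean of the 4 groups at or above 19.9 (95th percentile of 27 negative control probe sets) were tested. Limma 3.58.1 in R 4.3.3 was fitted to the 35 3T3-L1 arrays with 12 group means and an intensity trend. RSG was compared with DMSO at 1 hr, at 2 hrs, as the mean of both and as their difference, with Benjamini-Hochberg adjustment of each comparison over every probe set tested. The difference between cell lines was taken from a fit over all 71 arrays, with a probe set tested where a group mean of either line reached 19.9. Fold changes are ratios of geometric means, and ± is a standard error of the fit. Where every array of a group was under 19.9, the fold is a bound: the mean of the brighter group against 19.9. The p-value beside a bound is that of the fitted log2 change, values under 19.9 included, and does not test the bound.

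The members, the lists of genes and the tests were chosen with earlier results of these data known. Genes named are all those called at 1 or 2 hrs, the 15 largest rises and falls called on average, up to 4 members of each list with the largest averaged change, and genes the study names outside mitochondria. Of several probe sets the one with the highest mean signal or a called one is given, and others where their call differs. Genes on a list of PPARγ targets and lipid storage, nuclear receptors and adipogenic factors, transcriptional coregulators, immediate early genes, circadian clock, G protein and cAMP signaling, kinases and phosphatases, insulin and glucose, TGF-beta, BMP, Wnt and YAP, chemokines and cytokines, stress, and cholesterol and fatty acid synthesis were counted, with marker lists for adipocytes, preadipocytes and fibroblasts, macrophages, endothelium and skeletal muscle. Motifs were searched on both strands of RefSeq promoters.

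The deviations of RSG and DMSO arrays from their group means correlated, for equal replicate numbers, at 0.104 to 0.288 in 5 of 5 pairs at 1 and 2 hrs. Over all times 15 of 17 pairs were above 0.1, with the lowest at 0.00943. The number was therefore used as a block in an alternative fit, while the main fit and its p-values used no block. The methods state 3 batches of cells but not that a number marks a batch. Alternatives were that block, no trend, 3 other filters, a floor at 19.9, only the groups compared, quantile normalization, an additive fit, each array left out, and the methods' test (analysis of variance, unadjusted p under 0.05 and 1.2-fold). The fit was checked on simulated data. Tables were made in Python 3.11.15 with numpy 2.4.6 and pandas 2.3.3 and drawn with matplotlib 3.10.9.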

Additional observations from a re-analysis of the deposited data

How the results depend on the processing

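Of 13 calls at 1 hr, 31 at 2 hrs and 39 on average, a fit of only the groups compared gave 8 at 1 hr and 15 at 2 hrs, the methods' test gave 726, 753 and 831, and the additive fit gave 21 on average. With Benjamini-Hochberg adjustment the methods' test gave 10, 34 and 36. The replicate block gave 65 on average with 19 at 1 hr, 45 at 2 hrs and 82 of 82 named calls kept, and it added the calls of Pdk4 at 2 hrs (adjusted p 0.0445) and of Tfr2 and Lrp6 in the difference between the times. Of those 82, 37 were lost with only the groups compared, 15 with a floor at the presence limit, 11 with no trend, 8 with no filter and 7 with quantile normalization, and the cause was not tested.

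The fit over both cell lines also moved calls in 3T3-L1 cells, in either direction. Among others, it called Pck1 at 1 hr (adjusted p 0.0071 by limma) and Pdk4 at 2 hrs (0.028). It did not call H2-Oa at 1 hr (0.22). At 2 hrs it did not call Armcx4 (0.25), Herpud1 (0.17), Ppargc1b (0.075) or either Cdc42ep3 probe set (0.12 and 0.052). On average it called Tnfaip2 (0.016) and Lif (0.043) and not Klf9 (0.26). Leaving out 1 array from the main fit gave 8 to 14 calls at 1 hr, 23 to 31 at 2 hrs and 29 to 38 on average. For the difference between the times, 0 became 1 with no trend, 1 with quantile normalization and 2 with the replicate block, and 0 to 1 with an array left out. For the difference between the cell lines, 0 became up to 2 with an array left out: Nr4a1 and Plekha4 without the first 3T3-L1 DMSO array of 1 hr, and Gja4 without the second of 2 hrs.

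No called change turned direction, at the time or on the average at which it was called, under any setting tried. The changes that did turn were small and had not passed at that time or average. Lpl at 2 hrs was -0.0073 with quantile normalization, and Fasn on average 0.0152 with the replicate block. With 1 array left out, the log2 change at 1 hr ran from -0.0834 to 0.244 for Adipoq, -0.0354 to 0.182 for the brightest Fabp4 probe set, -0.372 to 0.201 for Fasn, -0.0543 to 0.284 for Lpl, -0.191 to 0.243 for Pdgfrb, -0.231 to 0.118 for Ppargc1a, -0.116 to 0.259 for Scd1, -0.0944 to 0.0278 for Slc2a1 and -0.0415 to 0.279 for Ucp3. At 2 hrs it ran from -0.097 to 0.115 for Fasn, -0.0458 to 0.217 for Lpl and -0.458 to 0.0735 for Ppargc1a. On average it ran from -0.179 to 0.107 for Fasn, -0.00574 to 0.211 for Pdgfrb and -0.245 to 0.0204 for Ppargc1a. With 3 arrays against 3 or 2, a change that missed the threshold was not shown to be absent, and near the presence limit only bounds were measured.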
